A study of Mus musculus with 9 samples.

Results

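The 9 genes described here make, carry, bind, sense and degrade retinoic acid: Rbp4, Stra6, Aldh1a1, Aldh1a2, Aldh1a3, Crabp1, Crabp2, Rarb and Cyp26b1. They were chosen by name, as a pathway, from the 22013 entries of the deposited table, and each was found in it once by its symbol. The study sequenced RNA of primary cells from mouse spinal meninges, the membranes around the cord, in 9 libraries, 3 each from the segments L, T and C. The labels call the cells fibroblasts and describe them as fresh and not treated in any special way, and no letter is spelled out there. Strain, age, genotype and number of animals are not given. As nothing says that the replicates are different animals or cultures, the p-values speak only of the spread among these libraries, and that may be technical.

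Retinoic acid is a vitamin A derivative that acts as a short-range signal. RBP4 carries retinol in blood and STRA6 takes it into cells, where retinol dehydrogenases such as RDH10 make retinaldehyde and the ALDH1A enzymes oxidise that to retinoic acid. CRABP1 and CRABP2 bind retinoic acid inside the cell, receptors of the RAR and RXR families act on genes together with it, and CYP26 enzymes break it down. Meningeal fibroblasts are a known source of retinoic acid for the developing brain, and Aldh1a2 is often used as a marker of them.

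The Rarb promoter holds the response element through which RAR and RXR receptors are known to raise Rarb itself, and it is shown here because Rarb and the enzymes that make and remove its ligand differed among the segments. Promoters of Aldh1a2, the synthesis gene with most transcripts in L and C, and of Cyp26b1, the catabolic gene, are set beside it. Each sequence runs 5′ to 3′ on the gene's strand from 250 bases before to 50 after the start, from RefSeq on build GRCm38.p6. The capitals in Rarb mark a direct repeat of the core motif, and the other pair held no core motif.
Rarb, chr14:16575427-16575726, minus strand: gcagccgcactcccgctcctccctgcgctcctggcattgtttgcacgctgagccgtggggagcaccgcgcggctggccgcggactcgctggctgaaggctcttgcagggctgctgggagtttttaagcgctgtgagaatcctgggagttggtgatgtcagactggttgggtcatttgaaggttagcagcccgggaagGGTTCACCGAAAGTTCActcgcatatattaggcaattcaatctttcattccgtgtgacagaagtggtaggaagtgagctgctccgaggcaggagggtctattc
Aldh1a2, chr9:71215539-71215838, plus strand: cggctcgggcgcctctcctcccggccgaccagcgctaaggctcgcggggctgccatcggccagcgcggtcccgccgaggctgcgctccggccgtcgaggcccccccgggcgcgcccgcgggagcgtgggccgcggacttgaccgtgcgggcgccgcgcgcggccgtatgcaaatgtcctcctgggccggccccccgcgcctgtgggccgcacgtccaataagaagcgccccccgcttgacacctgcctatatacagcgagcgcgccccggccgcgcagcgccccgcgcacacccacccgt
Cyp26b1, chr6:84593761-84594060, minus strand: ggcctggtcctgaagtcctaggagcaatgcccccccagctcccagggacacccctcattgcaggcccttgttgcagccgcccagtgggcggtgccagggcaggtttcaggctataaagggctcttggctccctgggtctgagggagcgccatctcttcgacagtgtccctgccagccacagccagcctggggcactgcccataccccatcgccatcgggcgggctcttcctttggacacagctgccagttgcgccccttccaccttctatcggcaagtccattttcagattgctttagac
The core motif was AGGTCA or GGGTCA or AGTTCA or GGTTCA, and the search was for any pair of them in the same direction with 1, 2 or 5 bases between them, on either strand. In Rarb the repeat has 5 bases between its copies and lies 53 to 37 bases before the start. A repeat with 5 bases between copies was found in 32 of 32851 promoters of this length (0.0974%). Repeats with 1 or 2 bases between copies were found in 0.222% and 0.268%, and a single core motif in 43.7%. Of 9 genes, 7 had an entry, with 12 promoters in all, and of these 12 only that of Rarb held such a repeat. Aldh1a3 and Crabp2 had no entry. Among the other retinoid genes described here, Cyp26a1, which encodes another catabolic enzyme, also held a repeat with 5 bases between copies, on the opposite strand 32 to 16 bases before its start.
Bco1, which encodes a carotene-cleaving enzyme, held a repeat with 1 base between copies, also on the opposite strand, 56 to 44 bases before its start.
Rarb repeat: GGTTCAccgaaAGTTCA
Cyp26a1 repeat: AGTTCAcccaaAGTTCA
In both repeats the capitals mark the core motifs. Rarb was detected in each library, while Cyp26a1 reached at most 0.066 TPM in any library of C and was listed at 0 in L and T. A match to letters is a description and was not tested as a site in these cells.

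Total estimated counts were 15652558 to 25204310 per library, and 12057 to 12305 genes reached 1 TPM (an abundance scaled for transcript length and for the library's total). Every pair of replicates differed by more than sampling noise (chi-square over its degrees of freedom, 3.78 to 20.9). The labelled cell type was checked on 9 fibroblast markers, which summed to 9683 to 9766 TPM in L, 8438 to 8889 in T and 9610 to 9909 in C, led by Vim, with none below 1 TPM throughout. Of these 9, 4 were higher and 3 lower for L against C, beside 49.6% of all tested genes called. For T against C 4 were higher and 4 lower, beside 51.1%. Examples are Thy1 (6.03-fold lower in T) and Pdgfra (5.95-fold higher in T), both named after their values were seen. Genes with at least 1 TPM in at least 3 libraries were tested, 12553 in all, and 55.9% of them differed among the segments (edgeR, adjusted p below 0.05). Each of the 9 retinoid genes passed that filter, but Crabp1 did so only through the 3 libraries of C and Rbp4 only through the 6 of L and T, so their difference from the segments below it was fixed by the filter. Stra6 reached 1 TPM in 4 libraries, all of C or T, so the filter favoured a difference from L. Rarb reached it in 7 and the other 5 genes in all 9.

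Most of the 9 genes were lower outside C. In L against C all 9 were called, 7 lower and 2 higher, where 49.6% of tested genes were called, 25.2% lower and 24.4% higher. In T against C 8 were called, 6 lower and 2 higher, beside 51.1% of tested genes, 25.2% lower and 25.8% higher, and Stra6 did not pass. In L against T 6 were called, 4 lower and 2 higher, beside 16.1% of tested genes, 8.21% lower and 7.88% higher. Those 6 became 4 without T replicate 3 or without L replicate 2. Nothing is read from these counts for Crabp1 and Rbp4 against C, since the filter fixed them. Nor is anything read for Stra6 in L, as it passed only through libraries of C and T. A fit with no filter on TPM, over 17154 genes, called all 9 in L against C (38.8% of its genes), 8 in T against C (40.1%) and 6 in L against T (12.2%), in the same directions. The median log2 fold change of the 9 in that fit was -2.69 for L against C, -1.08 for T against C and -0.14 for L against T, and over all its genes it was 0 in each. As background for the overlaps given gene by gene, L and C did not overlap for 58.6% of tested genes, T and C for 58.1% and L and T for 28.2%. The comparisons with C share its 3 libraries, and the members were picked as a pathway with earlier results of these data known. In bulk RNA, fewer cells of a type and less RNA per cell cannot be told apart.

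**Figure D1:**
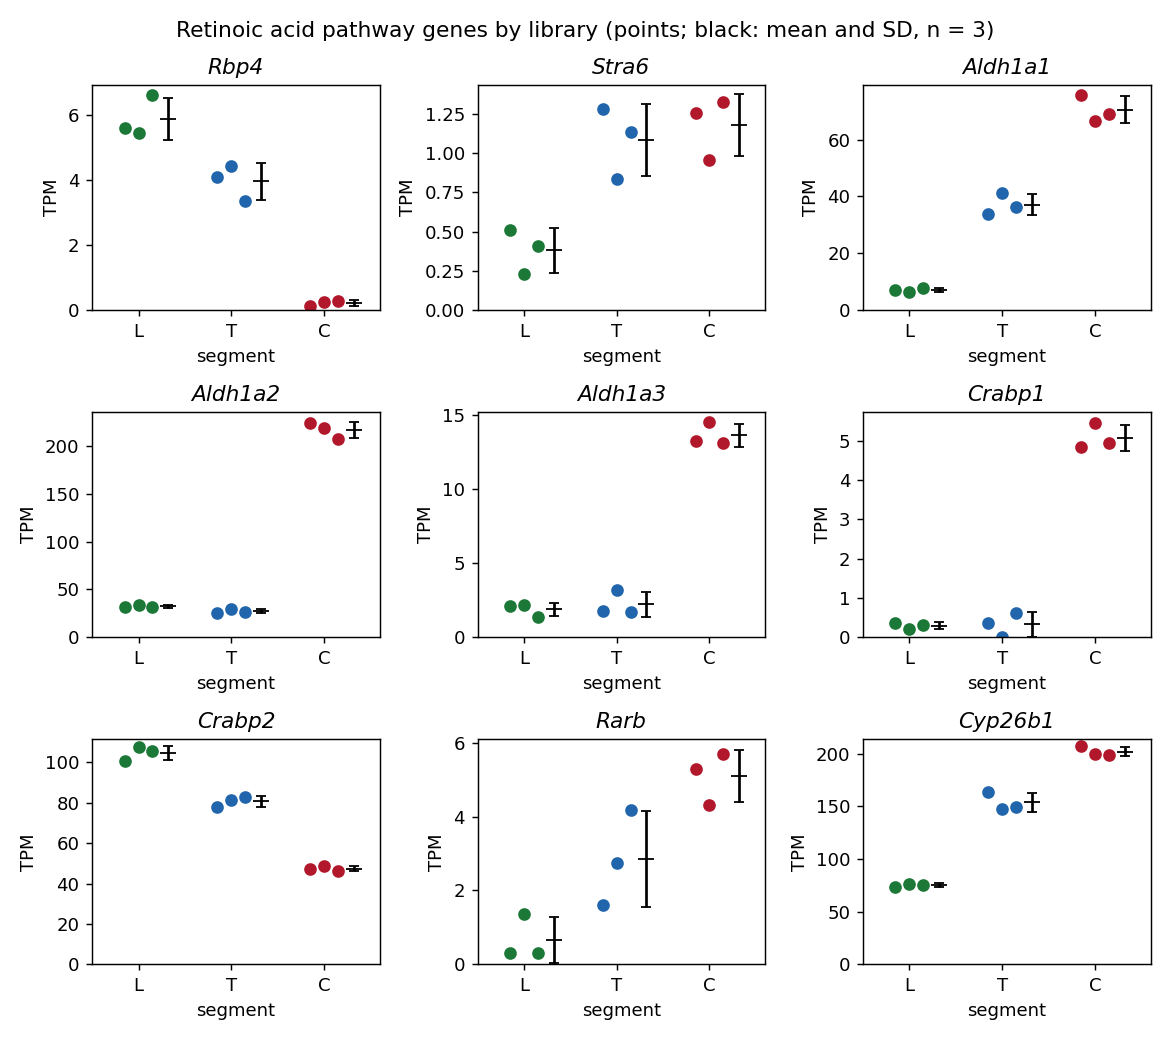
TPM (vertical axis, linear from 0) of the 9 genes in each library of L, T and C (coloured points), with the mean and SD of 3 libraries in black. Aldh1a2, Aldh1a3 and Crabp1 stand high in C, Aldh1a1, Rarb and Cyp26b1 step up from L through T to C, and Rbp4 and Crabp2 step down.

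Aldh1a2 encodes the main retinoic acid synthesising enzyme of the early embryo. It had 31.8, 33.6 and 31.2 TPM in L, 25.6, 29.1 and 26.3 in T, and 225, 219 and 208 in C. Libraries of C were high, and neither L nor T came near them. Aldh1a2 was 7.26-fold lower in L than in C (log2 -2.86, SE 0.07, edgeR adjusted p = 3.1e-12) and 8.75-fold lower in T than in C (log2 -3.13, SE 0.07, edgeR adjusted p = 6.48e-13). L and T did not overlap either, with L 1.21-fold higher (log2 0.27, SE 0.07, edgeR adjusted p = 0.0165). That last call ended, by adjusted p, without T replicate 3 (0.0805), without L replicate 2 (0.0503) and with only L and T in the fit (0.0549). Its 19 alternatives spanned 0.00887 to 0.0805.

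Aldh1a1 encodes a retinaldehyde dehydrogenase known from the retina and many adult tissues. It had 6.98, 6.26 and 7.62 TPM in L, 33.9, 41.0 and 36.1 in T, and 75.7, 66.6 and 69.2 in C, so that all 3 segments stood apart. It was 11.5-fold lower in L than in C (log2 -3.52, SE 0.10, edgeR adjusted p = 1.72e-11), 2.12-fold lower in T than in C (log2 -1.08, SE 0.09, edgeR adjusted p = 1.87e-07) and 5.43-fold lower in L than in T (log2 -2.44, SE 0.11, edgeR adjusted p = 6.63e-09). On the log2 scale T thus lay nearer to C for Aldh1a1 and nearer to L for Aldh1a2.

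Aldh1a3, the third enzyme of the group, had the lowest level of the 3 in each segment. It stood at 2.095, 2.18 and 1.37 TPM in L, at 1.73, 3.18 and 1.70 in T, and at 13.2, 14.5 and 13.1 in C. C was high, while L and T overlapped. The fold was 6.50 for L below C (log2 -2.70, SE 0.16, edgeR adjusted p = 1.45e-08) and 5.90 for T below C (log2 -2.56, SE 0.16, edgeR adjusted p = 1.28e-08). Between L and T the log2 difference was -0.14 (SE 0.20, edgeR adjusted p = 0.72).

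Added up, the 3 synthesis genes came to 40.2 to 42.0 TPM in L, 61.3 to 73.3 in T and 290.1 to 314 in C. Their make-up also differed. Aldh1a2 held 78.4% ± 1.28 of that sum in L, 40.9% ± 1.07 in T and 72.1% ± 0.749 in C (SD, n = 3 each). Aldh1a1 held 17.0% ± 2.04 in L, 55.9% ± 0.491 in T and 23.4% ± 1.04 in C. T was the segment where Aldh1a1 outnumbered Aldh1a2, by TPM, in each of its 3 libraries, and the reverse held in each of the other 6. These shares describe transcripts and carry no test.

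Cyp26b1 encodes an enzyme that oxidises retinoic acid to inactive forms, and was the only member of its family above the filter. It had 73.3, 76.7 and 75.5 TPM in L, 164, 148 and 149 in T, and 207, 199.9 and 199 in C. The order was L, T, C with no overlap between any pair of segments. Cyp26b1 was 2.90-fold lower in L than in C (log2 -1.53, SE 0.06, edgeR adjusted p = 4.58e-10), 1.43-fold lower in T than in C (log2 -0.52, SE 0.06, edgeR adjusted p = 1.32e-05) and 2.03-fold lower in L than in T (log2 -1.02, SE 0.06, edgeR adjusted p = 1.2e-07). By mean TPM it came after Crabp2 in L, first of the 9 genes in T, and after Aldh1a2 in C. The summed TPM of the 3 synthesis genes was 0.546 ± 0.0127 of the Cyp26b1 TPM in L, 0.433 ± 0.0615 in T and 1.49 ± 0.0303 in C (SD, n = 3 each). Synthesis transcripts exceeded Cyp26b1 in each library of C and stayed below it in each library of L and T.

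**Figure D2:**
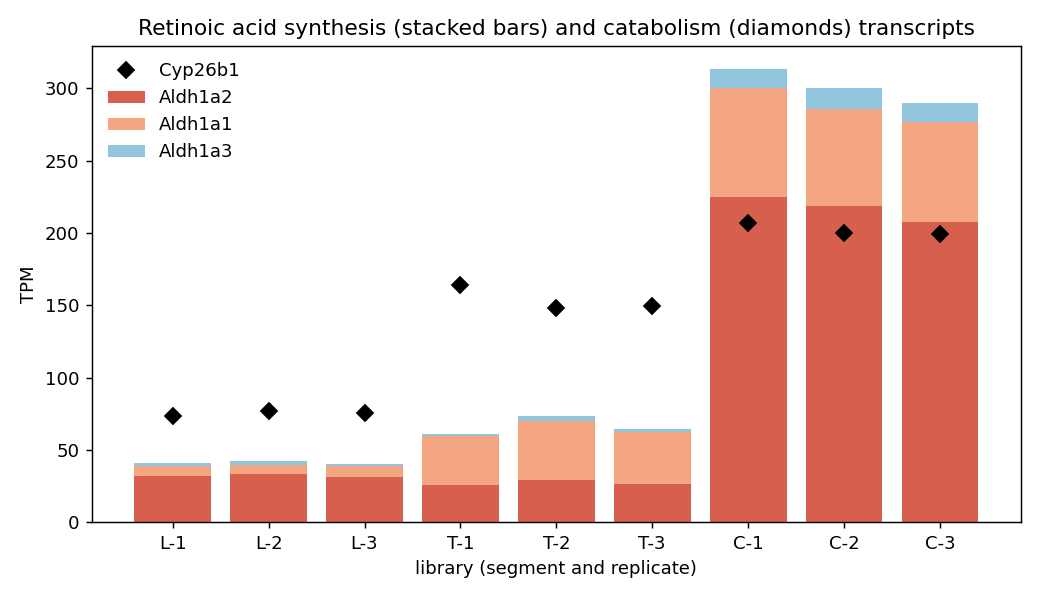
Stacked bars give the TPM of Aldh1a2, Aldh1a1 and Aldh1a3 in each library, from L on the left through T to C, and black diamonds the TPM of Cyp26b1. The bars reach 40.2 to 42.0 TPM in L, 61.3 to 73.3 in T and 290.1 to 314 in C, and rise above the diamonds only in C.

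Rbp4, which encodes the carrier of retinol, was near absent from C. It had 5.60, 5.44 and 6.61 TPM in L, 4.10, 4.45 and 3.35 in T, and 0.122, 0.252 and 0.289 in C. Each library of L and T lay far above each of C. In the fit with no filter on TPM its log2 fold change was 4.49 for L against C (edgeR adjusted p = 5.44e-08) and 3.99 for T against C (edgeR adjusted p = 3.73e-07). The C level rests on 6 counts over its 3 libraries. From summed counts the ratio was 23.9 for L over C (exact 95% counting interval 10.7 to 66.6) and 16.8 for T over C (7.43 to 47.0), which covers counting error only. L lay above T in each library, but the log2 difference of 0.50 (SE 0.23) did not pass (edgeR adjusted p = 0.173). It passed in limma on log2(TPM + 1), centred on the median or not (0.0422 and 0.0389), in a range of 0.0389 to 0.445 over 19 alternatives.

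Stra6, the membrane receptor for RBP4, was near the limit of the filter, with most libraries close to 1 TPM or below. Its levels were 0.508, 0.227 and 0.405 TPM in L, 1.28, 0.832 and 1.13 in T, and 1.25, 0.955 and 1.33 in C. L was low, and T and C overlapped. Counts were 23 in L, 70 in T and 93 in C, each summed over 3 libraries. Stra6 was 3.25-fold lower in L than in C (log2 -1.70, SE 0.35, edgeR adjusted p = 0.00125) and 2.71-fold lower in L than in T (log2 -1.44, SE 0.36, edgeR adjusted p = 0.0149). It passed the filter only through libraries of C and T. In the fit with no filter on TPM its log2 fold change was -1.69 for L against C (edgeR adjusted p = 0.0017) and -1.44 for L against T (edgeR adjusted p = 0.0198). With the filter, the call for L against T ended without T replicate 3 (adjusted p = 0.0541) or without L replicate 2 (0.057), in a range of 0.0106 to 0.057 over 18 alternatives. T and C differed by a log2 of -0.26 (SE 0.28, edgeR adjusted p = 0.466).

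Crabp1 and Crabp2 encode closely related binding proteins for retinoic acid. CRABP2 is known to hand retinoic acid to RAR in the nucleus, while CRABP1 is linked to its storage and breakdown in the cytoplasm. Their transcripts went in opposite directions. Crabp2 had 101, 108 and 106 TPM in L, 77.8, 81.6 and 82.9 in T, and 47.4, 48.9 and 46.0 in C, with no overlap between segments. Crabp2 was 2.05-fold higher in L than in C (log2 1.04, SE 0.07, edgeR adjusted p = 6.99e-08), 1.56-fold higher in T than in C (log2 0.64, SE 0.07, edgeR adjusted p = 6.97e-06) and higher in L than in T too (log2 0.40, SE 0.07, edgeR adjusted p = 0.0015).

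Crabp1 had 0.364, 0.193 and 0.306 TPM in L, 0.349, 0 and 0.613 in T, and 4.83, 5.46 and 4.95 in C. It was present in C and close to nothing elsewhere, with 5 counts summed over L, 6 over T and 115 over C. From these sums it was lower than in C by a ratio of 18.7 in L (exact 95% counting interval 7.80 to 58.8) and of 17.5 in T (7.79 to 48.6). In the fit with no filter on TPM its log2 fold change was -4.14 for L against C (edgeR adjusted p = 7.78e-06) and -4.04 for T against C (edgeR adjusted p = 5.84e-06). With the filter, the value for T against C was -4.05, and it was -3.44 without T replicate 2 and -4.94 without T replicate 3. L and T overlapped, with a log2 difference of -0.10 (SE 0.88, edgeR adjusted p = 0.967), which these counts cannot resolve.

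Rarb encodes a retinoic acid receptor and is the target gene whose response element is printed above. It had 0.300, 1.36 and 0.297 TPM in L, 1.60, 2.75 and 4.19 in T, and 5.29, 4.32 and 5.69 in C. C was high and L low, with T in between and spread widely, its highest library just below the lowest of C. Rarb was 10.8-fold lower in L than in C (log2 -3.43, SE 0.33, edgeR adjusted p = 1.55e-06), 2.44-fold lower in T than in C (log2 -1.29, SE 0.25, edgeR adjusted p = 0.000749) and 4.43-fold lower in L than in T (log2 -2.15, SE 0.37, edgeR adjusted p = 0.00109). The call for T against C ended in limma on log2(TPM + 0.1) (adjusted p = 0.139), in a range of 3.1e-05 to 0.139 over 18 alternatives. Rarb was the only one of the 9 genes whose deposited counts were not whole numbers, as with 6.03, 14.08 and 6.05 in L.

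**Figure D3:**
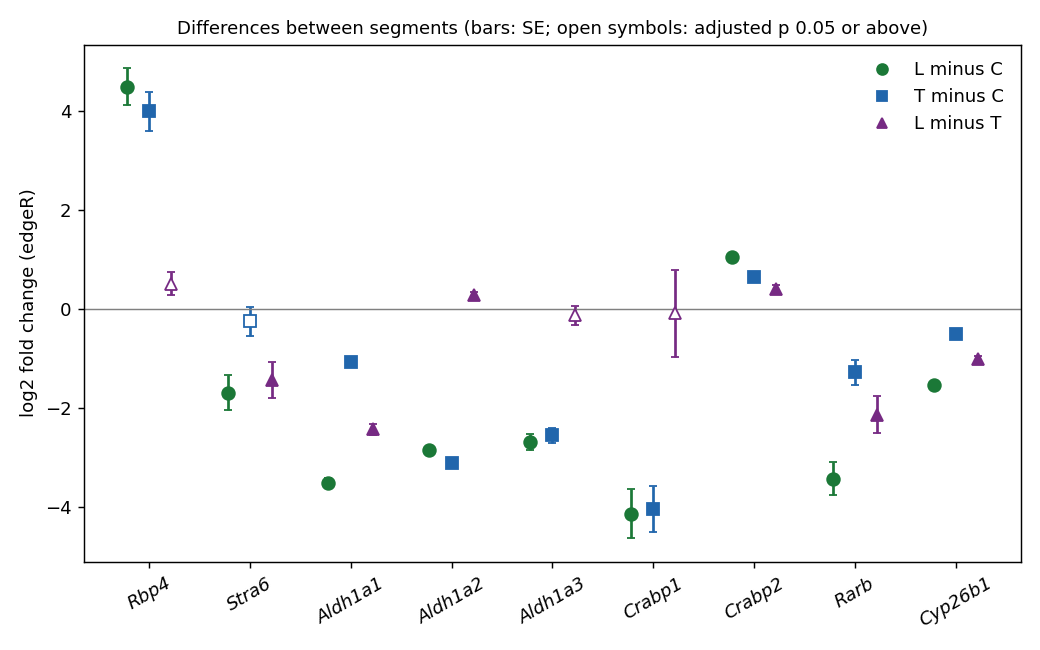
Log2 fold changes from edgeR (vertical axis) of the 9 genes for L minus C (circles), T minus C (squares) and L minus T (triangles), with bars for the SE. Open symbols did not pass an adjusted p of 0.05, as for Stra6 in T minus C and for Rbp4, Aldh1a3 and Crabp1 in L minus T.

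The step before the ALDH1A enzymes was read from 20 genes that oxidise, reduce or store retinol, of which 14 passed the filter. For L against C 1 was higher and 3 were lower, for T against C 4 were higher and 2 lower, and for L against T none was higher and 2 were lower, where 49.6%, 51.1% and 16.1% of tested genes were called. Their median log2 fold change was 0.05, 0.09 and -0.08, in the same order, against 0.01, 0.02 and -0.0025 for all tested genes. Rdh10, the retinol dehydrogenase needed for most retinoic acid in the embryo, had 6.72 ± 1.00 TPM in L, 9.72 ± 0.315 in T and 23.4 ± 2.22 in C (SD, n = 3 each). It was 3.76-fold lower in L than in C, 2.62-fold lower in T than in C and 1.43-fold lower in L than in T (edgeR adjusted p = 8.08e-09, 9.13e-08 and 0.0061). Rdh5, a retinol dehydrogenase known from the eye, was 3.18-fold lower in L and 3.11-fold lower in T than in C. Dhrs3, which turns retinaldehyde back into retinol, went the other way, at 41.8 ± 4.88 TPM in L, 38.0 ± 3.42 in T and 19.1 ± 1.47 in C. That was 2.09-fold higher in L and 1.88-fold higher in T than in C (edgeR adjusted p = 3.32e-06 and 1.31e-05). Adh1, an alcohol dehydrogenase that can oxidise retinol, was high in T, at 1.35 ± 0.539 TPM in L, 4.17 ± 1.24 in T and 0.610 ± 0.370 in C. It was 5.97-fold higher in T than in C and 3.05-fold lower in L than in T. Adh1 reached 1 TPM in no library of C, so the filter favoured its difference from C. Adh7, another alcohol dehydrogenase, was lower in L than in C by a log2 of -0.58 (edgeR adjusted p = 0.0305). That call ended without C replicate 1 (0.0824), C replicate 3 (0.129), L replicate 1 (0.07) or L replicate 3 (0.151), as adjusted p, in a range of 0.00763 to 0.151 over 18 alternatives. It also ended in limma on log2(TPM + 1) (adjusted p = 0.116) and on log2(TPM + 0.1) (0.122). Lrat, which stores retinol as esters, was listed at 0 in L and T and at no more than 0.034 TPM in C.

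Fabp5, a fatty acid-binding protein that can also carry retinoic acid, was low in T. It had 203, 198 and 224 TPM in L, 92.1, 77.5 and 75.0 in T, and 180, 166 and 166 in C. It was 2.28-fold lower in T than in C, and L exceeded T, being 2.596-fold higher in L than in T (edgeR adjusted p = 2.39e-07 and 3.27e-07). Between L and C the log2 difference of 0.18 did not pass (edgeR adjusted p = 0.116). It passed in edgeR without T replicate 1 (adjusted p = 0.037) and with only L and C in the fit (0.0481), and in limma on log2(TPM + 1) (0.0135) and log2(TPM + 0.1) (0.0143), in a range of 0.0135 to 0.295 over 19 alternatives. The catabolic genes Cyp26a1, Cyp26c1 and Cyp2s1 did not pass the filter and reached at most 0.582 TPM.

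Of 16 nuclear receptors and coregulators, 15 passed the filter. For L against C 6 were higher and 1 lower, for T against C 6 higher and 4 lower, and for L against T 2 higher and 1 lower. Over all tested genes, 49.6%, 51.1% and 16.1% were called. Their median log2 fold change was 0.23, 0.18 and 0.05, in the same order. Rarg and Rara, the other receptors for retinoic acid, stood above Rarb in TPM in each segment. Rarg had 80.6 ± 8.18 TPM in L, 78.3 ± 2.97 in T and 63.7 ± 3.13 in C, and Rara had 18.0 ± 1.41 in L, 17.1 ± 1.53 in T and 18.4 ± 0.359 in C. Rxra, the partner of these receptors, was 1.46-fold higher in L and 1.41-fold higher in T than in C. The coactivator Ncoa3 was 1.57-fold higher in L and 1.51-fold higher in T than in C. Nr2f1, an orphan receptor known to respond to retinoic acid, was 1.96-fold lower in T than in C, and its level in L was 1.82-fold that in T. Nr2f2 was 1.65-fold lower in L than in C and 1.42-fold lower in L than in T. Smaller calls depended on single libraries and on the method. Ncoa1, 1.33-fold higher in T than in C, was lost without T replicate 3 (edgeR adjusted p = 0.0677, range 8.79e-05 to 0.144 over 19 alternatives). Ncor1, 1.26-fold higher in L than in C, was lost without C replicate 1 (0.0554) or L replicate 2 (0.0561), in a range of 0.000648 to 0.0923 over 19 alternatives. Both were also lost in limma on median-centred log2(TPM + 1) (adjusted p = 0.144 for Ncoa1 and 0.0923 for Ncor1).

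Genes outside the 9 that retinoic acid is known to induce were mostly lower in L and T than in C. Of 21 on the list, 16 passed the filter. For L against C 1 was higher and 11 were lower, for T against C 3 were higher and 12 lower, and for L against T 2 were higher and 5 lower, beside the same shares of all tested genes. Their median log2 fold change was -0.84, -1.03 and 0.02, in the same order, against the values for all tested genes given above. Dhrs3, Rara, Nr2f1, Nr2f2 and Nrip1 are among the genes that the list shares with other groups, and its Hox and Meis genes also mark position along the body axis. Tgm2, a transglutaminase, had 8.64 ± 0.676 TPM in L, 8.09 ± 0.647 in T and 26.7 ± 1.31 in C. It was 3.31-fold lower in L and 3.60-fold lower in T than in C (edgeR adjusted p = 8.96e-09 and 3.24e-09). Mdk, the heparin-binding growth factor midkine, was 3.42-fold lower in L and 3.31-fold lower in T than in C. Hoxd4, whose neural expression depends on retinoic acid, had 0.752 ± 0.273 TPM in L, 3.56 ± 1.36 in T and 8.48 ± 1.02 in C. It was 10.95-fold lower in L than in C and 4.603-fold lower in L than in T. Meis2, a cofactor of Hox proteins, was 2.71-fold lower in T than in C, with L at 2.13-fold the level of T. Rarres2, the chemokine-like adipokine chemerin, was 4.22-fold lower in T than in C, and 6.50-fold without T replicate 3. Against C it was 2.86-fold lower in L (edgeR adjusted p = 0.027), a call that ended without C replicate 1 (0.0904), C replicate 3 (0.0791) or L replicate 2 (0.091), in a range of 0.0107 to 0.091 over 18 alternatives. Rarres1, named for its response to retinoic acid, was high in T, at 34.9 ± 6.36 TPM in L, 87.7 ± 1.43 in T and 41.8 ± 0.375 in C, and was 2.48-fold lower in L than in T.

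**Figure D4:**
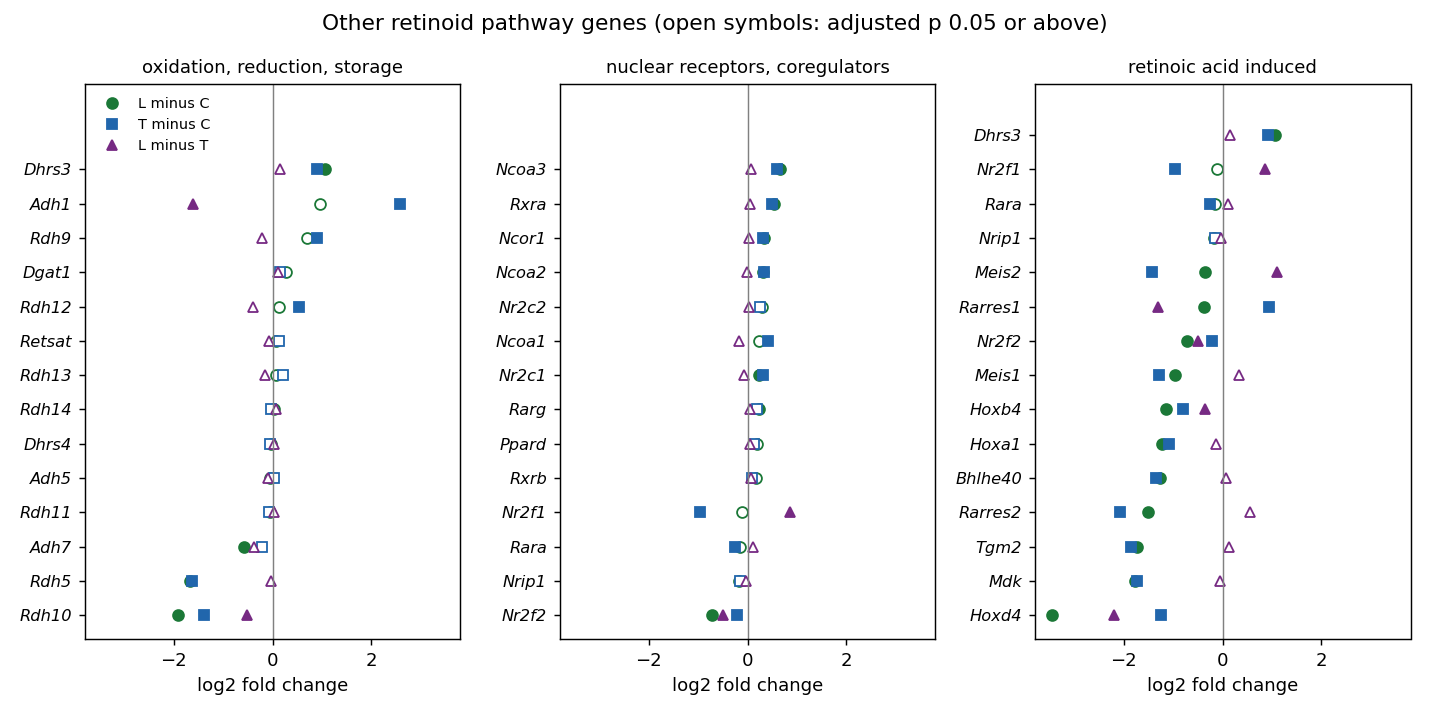
Log2 fold changes from edgeR (horizontal axis) of other retinoid genes that passed the filter, in 3 groups, for L minus C (circles), T minus C (squares) and L minus T (triangles). Open symbols did not pass an adjusted p of 0.05. In the group at the right, 11 genes were lower in L and 12 lower in T than in C, where 25.2% of all tested genes were lower in each.

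Genes with the most similar profile were sought by the root mean square difference of centred log2(TPM + 1) over the 9 libraries, where the spread of the gene about its own mean serves as the scale. For Aldh1a2, with a spread of 1.34, they were Flt1, H3c2 and Mcpt8 at 0.13 to 0.15, and H3c2 and Mcpt8 are uncertain, being members of multigene families. Nrcam, Tnnt2 and Parm1 came closest to Aldh1a3, at 0.13 to 0.18 on a spread of 1.10, and Megf10, Angpt4 and Tmem179 to Crabp1, at 0.16 to 0.17 on a spread of 1.07. Closest to Aldh1a1 were Cxcl12, F3 and Ncan, at 0.43 to 0.46 on a spread of 1.34. Cyp26b1 lay closest to Sorl1, Afap1l2 and Gsta4, at 0.06 to 0.08 on a spread of 0.60, and Rarb to Sema3e, Ptn and Car3, at 0.28 to 0.30 on a spread of 0.87. For Crabp2 they were Kif20a, Cdca8 and Ifi47, at 0.05 to 0.06 on a spread of 0.47. Rbp4 lay nearest to Prdm6, Anpep and Smoc2, at 0.14 to 0.18 on a spread of 1.09, and Stra6 to Id2, Ms4a7 and Etv5, at 0.08 to 0.11 on a spread of 0.32. Log2(TPM + 1) understates changes of low genes, so their nearest genes can be abundant ones with a smaller fold change. Mean TPM in L and C was 5.89 and 0.221 for Rbp4, beside 179.7 and 34.7 for Prdm6. For Stra6 it was 0.380 and 1.18, beside 34.5 and 52.1 for Id2. Set against the spread, the genes nearest to Aldh1a1, Rarb and Stra6 were the least close.

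Markers of meningeal layers and of other cell types differed among the segments beside these genes, and their part in the results was not tested. Counts of called markers, here and in the paragraphs that follow, stand beside the shares of all tested genes. For L against C 49.6% were called (25.2% lower, 24.4% higher). For T against C 51.1% were called (25.2% lower, 25.8% higher), and for L against T 16.1% (8.21% lower, 7.88% higher). Pia and perivascular markers, which include Rdh10, were lower in L and in T than in C for 7 of 7, and summed to 3483 to 4129 TPM in L, 3972 to 4735 in T and 5694 to 6087 in C. S100a6 supplied most of that sum, at 3431 ± 325 TPM in L, 4071 ± 424 in T and 5234 ± 189 in C (SD, n = 3 each), and changed less than most of the list. The list's median log2 fold change was -1.91 for L against C and -1.9996 for T against C, and Lamc3 was 5.91-fold lower in L and 7.47-fold lower in T than in C. Arachnoid markers went the other way. Of 7 tested, 6 were higher in L and 6 in T than in C, with sums of 227 to 262 TPM in L, 413 to 457 in T and 127 to 135 in C. Cdh1 and Dpp4 reached 1 TPM only in libraries of L and T, so the filter favoured their difference from C. Tjp1 supplied most of the sum in C, at 128 ± 13.6 TPM in L, 183 ± 30.2 in T and 111 ± 4.17 in C (SD). For L against C Tjp1 did not pass (edgeR adjusted p = 0.342), while Cldn11 was 32.3-fold higher in L and 93.3-fold higher in T than in C. Dura markers, which include Crabp2, were split, with 3 of 7 higher and 3 lower for L against C and 5 higher and 2 lower for T against C, with sums of 1089 to 1172 TPM in L, 969 to 1025 in T and 1945 to 2095 in C. Mgp supplied most of that sum in C and lowered it elsewhere, at 657 ± 49.4 TPM in L, 392 ± 33.8 in T and 1728 ± 76.1 in C (SD, n = 3 each), while Foxc2 was 2.34-fold higher in L and 2.63-fold higher in T than in C.

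Schwann cell markers had 6 of 7 tested lower and 1 higher in L and in T than in C, with sums of 48.4 to 49.4 TPM in L, 27.8 to 33.4 in T and 77.4 to 86.7 in C. Mural markers were lower than in C for 4 of 6 in L and 5 of 6 in T, summing to 129 to 131 TPM in L, 69.5 to 73.2 in T and 302 to 315 in C. Mcam supplied most of that sum in C, at 46.1 ± 1.03 TPM in L, 20.8 ± 1.45 in T and 211 ± 5.70 in C (SD). Endothelial markers were lower than in C for 4 of 5 and higher for 1 of 5 in L and in T. Of these, Kdr and Emcn reached 1 TPM only in libraries of C, so the filter fixed their difference from it. The endothelial markers summed to 59.0 to 63.0 TPM in L, 48.7 to 49.5 in T and 105 to 117 in C, with Cldn5 at 0 throughout and Pecam1 and Tie1 below 1 TPM. Cdh5 supplied most of that sum in each segment, at 54.1 ± 2.05 TPM in L, 43.1 ± 0.464 in T and 83.6 ± 5.23 in C (SD). Neuronal markers were lower than in C for 2 of 3 in L and in T, and 1 of 3 was higher in T. They summed to 48.2 to 52.0 TPM in L, 30.2 to 35.4 in T and 238 to 242 in C, but Rbfox3, Snap25, Syt1, Nefl and Slc17a6 stayed below 1 TPM in each library. Stmn2 supplied most of that sum in C, at 22.2 ± 1.98 TPM in L, 13.5 ± 0.520 in T and 162 ± 3.95 in C (SD).

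Markers of macrophages, glia and epithelia differed as well. Macrophage markers were lower in L than in T for 5 of 6 and lower in L than in C for 5 of 6, with sums of 13.5 to 16.1 TPM in L, 34.0 to 37.0 in T and 25.6 to 29.8 in C, and Ptprc stayed below 1 TPM. Astrocyte and ependymal markers were lower in L than in T for 4 of 6 and lower in L than in C for 5 of 6, with 1 of 6 higher. For T against C they were split, with 3 of 6 higher and 3 lower. They summed to 36.0 to 41.7 TPM in L, 162 to 167 in T and 108 to 118 in C. Gfap supplied most of that sum in T and C, at 15.9 ± 0.861 TPM in L, 106 ± 5.14 in T and 75.2 ± 5.93 in C (SD). Oligodendrocyte lineage markers summed to 56.2 to 59.5 TPM in L, 62.1 to 71.3 in T and 60.0 to 62.3 in C, and were lower than in C for 3 of 5 and higher for 1 of 5 in L and in T. Cnp supplied most of that sum, at 42.4 ± 2.30 TPM in L, 39.5 ± 5.06 in T and 35.0 ± 0.436 in C (SD). The higher gene was Pdgfra, which is also on the fibroblast list, and Sox10 is also on the Schwann cell list. Epithelial markers, led by Krt19, summed to 31.1 to 41.0 TPM in L, 69.7 to 78.5 in T and 25.5 to 29.0 in C, where 2 of 3 tested were higher in L and 3 of 3 in T than in C, and Epcam stayed below 1 TPM. The filter fixed some of the calls in these lists. Slc1a3, Foxj1 and Olig2 reached 1 TPM only in libraries of C, and Cdh1 and Krt15 only in those of L and T. Mrc1, Cx3cr1 and Olig1 reached it in no library of L.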

How the data were processed

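Per gene and library, the deposited table holds an estimated count. It also holds a TPM value, made by the authors. HISAT2 2.2.1, StringTie 2.1.4, DESeq2 1.32.0, Trimmomatic 0.39 and FastQC 0.11.9 are listed in the submitters' processing notes without role or order, as are the builds GRCm39 and GRCh38. The annotation and the strand setting of the counting are not stated. Libraries were made with a stranded total RNA kit, per the labels. Of the deposited estimated counts, 92.7% were whole numbers, and all were rounded before testing. Groups and replicate numbers came from the titles, since 1 description (of L replicate 3) points to another library's column.

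All 9 libraries entered a single edgeR 4.0.16 quasi-likelihood fit (R 4.3.3, TMM scaling, segment as the only term), with two-sided tests and Benjamini-Hochberg adjustment over 12553 genes at a threshold of 0.05. Of the table's entries, 112 carry no symbol. Standard errors come from the log2 fold change and its F statistic. Alternatives were DESeq2 1.42.0, limma 3.58.1 on log2(TPM + 1) and log2(TPM + 0.1), other scalings and filters, a replicate block, pairs of segments and leaving out each library. Named are all 9 genes, up to 4 called genes per list and contrast with the largest change (otherwise the 2 with most TPM), and the 3 nearest profiles per gene. Some genes that this rule names are not reported here, though they stay in the fit and in the counts. The members and lists were chosen with earlier results of these data known. Sequences come from RefSeq tables on GRCm38.p6, another build than the mouse build in the notes.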

Additional observations from a re-analysis of the deposited data

How the results depend on the processing

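The number of the 9 genes called stayed at 8 (T against C), 9 (L against C) and 6 (L against T) with other scalings (DESeq2 size factors, library totals), in DESeq2, with no filter and with the replicate block. With a minimum of 5 TPM in 3 libraries Rarb, Stra6 and Crabp1 were no longer tested, and 6, 6 and 4 were called. Limma on log2(TPM + 1) gave 8, 9 and 7, and on log2(TPM + 0.1) 7, 9 and 6. Only the segments compared gave 8, 9 and 5. Leaving out each library in turn kept 8 and 9 against C and gave 4 to 6 for L against T, with 4 without T replicate 3 or L replicate 2.

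Directions turned only in L against T, for genes that did not pass. Aldh1a3 had a log2 change of 0.0212 without T replicate 2 and 0.0285 without L replicate 3, in a range of -0.266 to 0.0285 with 1 library left out. Crabp1 had 0.26 in limma on log2(TPM + 0.1), 0.0008 with median centring, 0.7958 without T replicate 3 and 0.1022 without L replicate 2, in a range of -0.705 to 0.7958. The cause was not tested. Over all genes, 5451 to 6958 (T against C), 5221 to 6890 (L against C), 1412 to 2437 (L against T) and 5882 to 7921 (among segments) were called with 1 library left out. The median log2 change of all genes moved by 0.112, to 0.128, for T against C and by 0.093, to 0.10, for L against C when limma was run on log2(TPM + 1). For T against C, 4110 genes were then higher and 2214 lower (edgeR 3240 and 3169, median centring 2491 and 3313, library totals 3892 and 2678). For L against C, 3737 were higher and 2246 lower (edgeR 3064 and 3166, median centring 2282 and 3399, library totals 3555 and 2730). Log2(TPM + 1) understates changes of low genes by its construction: Rbp4 had a log2 change of 2.35 for L against C there after median centring, against 4.49 with edgeR.

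Replicate numbers are shared between segments. Same-numbered libraries deviated together with r from -0.20 to 0.346 over 9 pairs, and libraries of different number with r from -0.394 to 0.419. Of 9 libraries, 4 matched their own number best. Whether same-numbered libraries share an origin is not stated, and these values cannot decide it. The main fit did not use the numbers as a pairing. The replicate block called 6252, 6084 and 1892 genes. Low counts limit Crabp1, Rbp4 in C, and Stra6 and Rarb in L.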

Other observations

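CRABP2 and FABP5 are both described as carriers of retinoic acid to different nuclear receptors. The TPM of Crabp2 was 0.504 ± 0.0358 of that of Fabp5 in L, 1.00 ± 0.138 in T and 0.278 ± 0.0151 in C (SD, n = 3 each). The ranges of the 3 segments did not overlap, at 0.473 to 0.543 in L, 0.845 to 1.11 in T and 0.264 to 0.294 in C. The ratio was put together after its values were seen and carries no test.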
